A study of Homo sapiens with 23 samples.

Results

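The 48 proteasome subunit and assembly genes were examined among 20007 protein-coding genes, each represented by a window of 1000 bp on either side of its start site. They are the GENCODE v44 protein-coding genes whose symbol is PSMA, PSMB, PSMC, PSMD, PSME, PSMF or PSMG followed by digits. This rule uses no value of the peak lists, but the set was chosen with earlier results of these data known. Chromatin immunoprecipitation with sequencing (ChIP-seq) was performed in SW480, a human colorectal cancer line, with antibodies to acylated lysine 18 of histone H3 (H3K18) and lysine 12 of histone H4 (H4K12). Before fixation the cells received either sodium propionate at 10 mM (NaPr), or sodium butyrate at 1 mM (NaBu), or no supplement (untreated). The 20 ChIP libraries fell into 10 groups of 2: H3K18pr and H4K12pr (propionyl) after NaPr, H3K18bu and H4K12bu (butyryl) after NaBu, and H3K18ac and H4K12ac (acetyl) after NaPr, after NaBu and untreated. There was 1 input library per treatment, which is chromatin sequenced without an antibody. Nothing in the labels says whether the 2 libraries of a group came from separate cultures, so the spread between them may be technical.

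The files were lists of called peaks, 1 per library, and held from 8158 peaks (H4K12bu replicate 2) to 208823 peaks (H4K12ac untreated replicate 1). Read depth was not given with the peaks, and a list that called fewer peaks gives fewer windows with a peak. H4K12ac after NaBu stood apart, with 88658 peaks in replicate 1 and 11680 in replicate 2. The run tags carried by the files split the libraries into 3 runs: the propionyl libraries, the acetyl libraries after NaPr and untreated, and all libraries after NaBu. Run and contrast cannot be told apart for propionyl against acetyl, nor for NaBu against untreated acetyl, whereas butyryl against acetyl and NaPr against untreated acetyl were each sequenced within a run.

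The proteasome degrades proteins tagged with ubiquitin. Its 20S core is a barrel of alpha and beta rings that holds the proteolytic sites, and the 19S particle on its ends recognises, unfolds and admits the substrate. Alternative catalytic subunits, induced by interferon, form the immunoproteasome, other activators can replace the 19S particle, and dedicated chaperones assemble the rings and the base. Apart from the induced subunits and those of single tissues, the genes are used by all cells. They are coordinately transcribed, in part through NFE2L1 acting at antioxidant response elements. Acetylation of histones near a start site is a common mark of active promoters, and propionyl and butyryl groups can be added to the same lysines from the matching acyl-CoA.

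The sequences before the start sites of 4 members are shown because these members lie at the ends of the range of peak signal described below. PSMC3 and PSMC4 had a peak in all 20 libraries, PSME1 in 5 and PSMB11 in none. The sequences are from RefSeq on GRCh38.p14 and stop before the most upstream annotated start of the gene: chr11:47426474-47426689 on the minus strand for PSMC3, and chr19:39970915-39971164, chr14:24135944-24136162 and chr14:23041962-23042211 on the plus strand for PSMC4, PSME1 and PSMB11. Capitals mark matches on either strand to 4 motifs, which do not overlap in these stretches. They are the core of the antioxidant response element, spelled TGACNNNGC, the box bound by NF-Y, spelled CCAAT, the core bound by ETS factors, spelled CGGAAG, and the box known as TATA, spelled TATAAA.
PSMC3: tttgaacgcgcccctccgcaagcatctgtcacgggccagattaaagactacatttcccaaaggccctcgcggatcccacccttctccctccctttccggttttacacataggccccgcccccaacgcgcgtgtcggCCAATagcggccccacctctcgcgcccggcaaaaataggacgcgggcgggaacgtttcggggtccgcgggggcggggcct
PSMC4: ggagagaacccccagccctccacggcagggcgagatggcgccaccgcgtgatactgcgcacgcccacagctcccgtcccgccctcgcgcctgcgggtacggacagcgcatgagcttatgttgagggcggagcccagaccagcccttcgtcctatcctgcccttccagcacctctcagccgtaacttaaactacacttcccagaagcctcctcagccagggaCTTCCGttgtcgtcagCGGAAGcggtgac
PSME1: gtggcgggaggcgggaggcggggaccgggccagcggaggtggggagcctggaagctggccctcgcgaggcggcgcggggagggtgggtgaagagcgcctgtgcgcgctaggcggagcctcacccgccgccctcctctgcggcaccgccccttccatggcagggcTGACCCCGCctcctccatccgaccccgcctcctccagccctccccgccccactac
PSMB11: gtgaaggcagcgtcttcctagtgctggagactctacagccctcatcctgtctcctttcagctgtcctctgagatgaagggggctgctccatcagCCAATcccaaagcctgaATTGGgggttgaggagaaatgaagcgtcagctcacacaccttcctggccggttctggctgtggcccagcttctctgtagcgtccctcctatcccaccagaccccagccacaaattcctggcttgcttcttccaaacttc
The PSMC3 and PSMC4 stretches held 24 and 21 CpG dinucleotides, and the PSME1 stretch held 22. The PSMB11 stretch held 4, and its GC content was 56% against 64.8% for PSMC3 and PSMC4. The CpG count of PSME1, which had few peaks, was thus close to those of PSMC3 and PSMC4, but its GC content was higher, at 77.2%.

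A larger share of the proteasome windows than of the other protein-coding windows held a peak in each of the 20 ChIP libraries. In untreated cells 46 and 46 of the 48 windows held an H3K18ac peak, against 66.4% and 70.2% of the other 19959 windows. H4K12ac peaks lay at 46 and 45 windows, against 65.4% and 65.6% of the others. After NaPr, H3K18pr peaks lay at 43 and 41 windows and H4K12pr peaks at 44 and 43, against 56.7% and 49.99% of the other windows for H3K18pr and 63.1% and 55.8% for H4K12pr. Both acyl marks on both lysines thus covered most of the family in propionate-treated cells. H3K18ac after NaPr was at 46 and 43 windows, against 67.7% and 56.7% of the others, and H4K12ac after NaPr at 35 and 31, where the other windows had 34.4% and 27.5%. With the full lists, the excess over other promoters was 37.8 percentage points ± 0.979 (SD, n = 2) for H4K12ac after NaPr. It was 29.3 ± 1.56 (SD, n = 2) for H4K12ac untreated, where 46 and 45 of 48 windows left little room for more. With each list cut to an equal number of its strongest peaks, the order was reversed. The excess was then 24.9 ± 4.67 (SD, n = 2) after NaPr and 49.2 ± 3.16 (SD, n = 2) untreated. The order of these groups thus depended on the number of peaks used. After NaBu, H3K18ac was at 45 and 41 windows and H4K12ac at 34 and 18, against 60.9% and 45.7%, and 35.1% and 15.3%, of the others. Butyryl peaks were the least frequent, at 18 and 11 windows for H3K18bu and at 10 and 6 for H4K12bu, with 19.4%, 13.2%, 11.1% and 7.94% of the other windows. Many of these peaks were weak. With peaks at q under 0.05 only, the mean member shares were 12.5% for H3K18bu and 5.21% for H4K12bu. The other windows then had 8.17% and 2.71%.

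**Figure D1:**
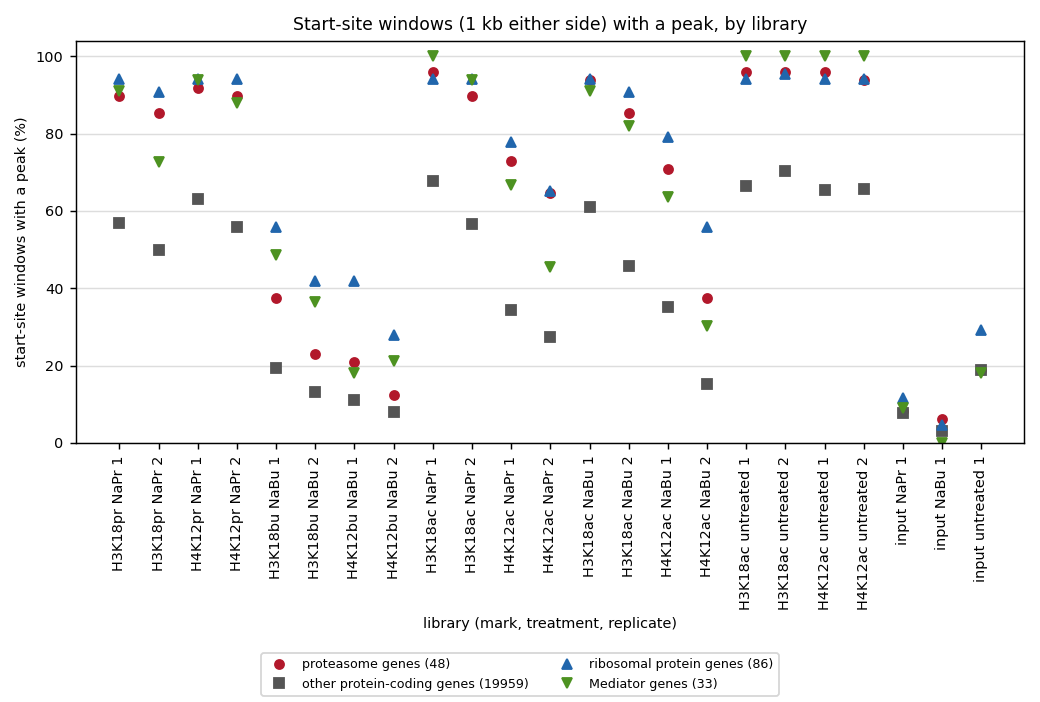
Percentage of start-site windows with at least 1 bp of a peak (vertical axis) in each of the 20 ChIP libraries and the 3 inputs (horizontal axis), for the 48 proteasome genes, the 19959 other protein-coding genes, 86 ribosomal protein genes and 33 Mediator genes. Proteasome windows lie above the other windows in each ChIP library and the ribosomal protein windows lie above the proteasome windows in the 4 butyryl libraries.

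The inputs gave 4 member windows after NaPr (8.33%), 3 after NaBu (6.25%) and 9 untreated (18.75%), against 7.79%, 2.97% and 18.8% of the other windows. The shares were thus close in the NaPr and untreated inputs, and the member share was the larger in the NaBu input. Whether the small butyryl excess depends on the antibody was not tested. In all, 13 of the 48 windows overlapped a peak of at least 1 input. High shares were also found at other gene sets largely used by all cells. In untreated H3K18ac replicate 1, a peak lay at 95.8% of the proteasome windows, at 94.2% of those of 86 ribosomal protein genes and at 100% of those of 33 Mediator genes. In H4K12bu replicate 1 the ribosomal protein windows reached 41.9%, the proteasome windows 20.8% and the Mediator windows 18.2%. In all 4 butyryl libraries the ribosomal protein windows had a larger share than the proteasome windows, and in the other 3 the Mediator windows did too. The sets were not close in every acetyl library: in H4K12ac NaPr replicate 2 the Mediator windows had 45.5% against 64.6%, and in H4K12ac NaBu replicate 2 the ribosomal protein windows had 55.8% against 37.5%.

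The windows also differed in sequence. The ratio of observed to expected CpG dinucleotides exceeded 0.6 in 36 of the 48 proteasome windows (75%) and in 56.2% of the others, although the median GC content of the proteasome windows was 54.1% against 56.0%. Among windows above this ratio, 35 of 36 member windows held an H4K12ac peak in each untreated library, against 84.2% and 84.4% of the other CpG-rich windows. H4K12ac after NaPr was at 28 and 24 of the 36 and at 45.1% and 34.8% of the other CpG-rich windows. In H4K12bu replicate 2 the order was turned, with 3 of 36 (8.33%) against 11.1%. Another annotated protein-coding or long non-coding gene began on the opposite strand within 15 of the 48 windows (31.2%) and within 23.2% of the others, and a peak there cannot be assigned to 1 of the 2 genes. The median number of libraries with a peak was 15 of 20 for members with such a neighbour, 15 without one, and 10 for the other protein-coding windows.

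Each library was next ranked by its strongest peak per window. The promoter percentile is the rank of a window among all 20007 by the highest −log10 p-value of a peak overlapping it, from 0 to 100, and windows without a peak share the lowest ranks. That shared value depends on the list, from 14.9 in the list with the most windows marked (H3K18ac untreated replicate 2) to 46.0 in the shortest (H4K12bu replicate 2), so list length still enters the scale. The median percentile of the members lay between 85.8 and 91.5 in untreated acetyl, H3K18ac NaPr and H4K12pr libraries, and equalled the value shared by windows without a peak in the 4 butyryl libraries and in H4K12ac NaBu replicate 2. In the 3 libraries where members had their best ranks, the strongest member peak was number 24 of its list (PSMC3, H4K12ac untreated replicate 1), number 37 (PSMG2, H3K18ac NaPr replicate 1) and number 41 (PSMG2, H4K12ac untreated replicate 2). PSMG2 encodes a chaperone that pairs with PSMG1 in assembling the alpha ring.

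**Figure D2:**
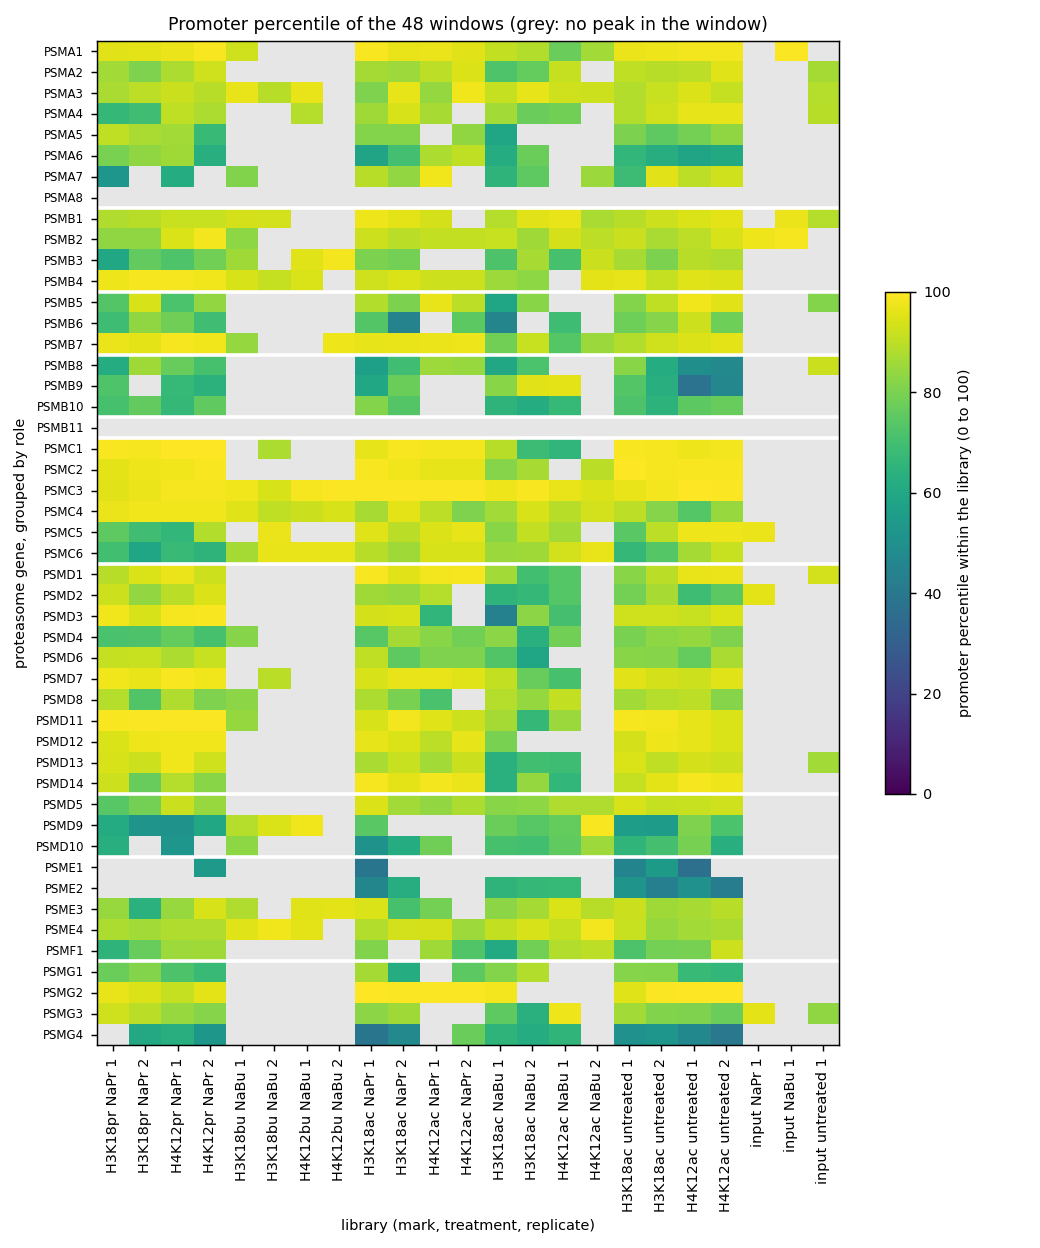
Promoter percentile (colour, 0 to 100 within a library) of the 48 proteasome windows (rows, grouped by role with white lines between groups) in the 20 ChIP libraries and 3 inputs (columns), grey where the window held no peak. PSMA8 and PSMB11 are grey throughout, PSMC3 is bright in all 20 ChIP libraries, and most rows turn grey in the 4 butyryl columns.

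The alpha ring forms the outer gates of the 20S core, and its 7 general subunits, PSMA1 to PSMA7, had peaks in 12 to 19 of the 20 libraries. PSMA3 had the third highest mean percentile of all members, 89.2, and lacked a peak in H4K12bu replicate 2 only. PSMA5 had a peak in the fewest of them, 12. PSMA8, the alpha subunit of the testis, had no peak in any of the 20 libraries, so each of its percentiles is the shared value. Of these 8 windows, H4K12ac was at 7 in both untreated libraries and at 4 in both libraries after NaPr.

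The beta rings hold the catalytic sites. PSMB5, PSMB6 and PSMB7 encode the chymotrypsin-like, caspase-like and trypsin-like subunits. PSMB7 had a peak in 18 libraries and a mean percentile of 87.4, whereas PSMB5 had 14 and 71.7, and PSMB6 had 13 and 60.7. PSMB7 covered 184 bp in H3K18bu replicate 1 and 224 bp in H4K12bu replicate 2, and neither PSMB5 nor PSMB6 had a butyryl peak. The structural subunits PSMB1, PSMB2 and PSMB3 had peaks in 17 libraries each and PSMB4 in 18. The structural genes thus lay in a narrow range, whereas the catalytic genes spread from 13 to 18 libraries. PSMB11, the catalytic subunit of the thymus, had no peak in any library.

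PSMB8, PSMB9 and PSMB10 encode the immunoproteasome counterparts of the catalytic subunits. PSMB8 and PSMB9 lie in the major histocompatibility complex on chromosome 6, and the start of TAP1 falls in the PSMB9 window on the opposite strand. All 3 had H3K18ac peaks in all 6 H3K18ac libraries and none had a butyryl peak. Their mean percentiles were 60.6, 57.3 and 60.6. For PSMB9 the H4K12ac bases covered were 198 and 315 bp untreated, 0 and 0 bp after NaPr, and 385 and 0 bp after NaBu. For PSMB10 they were 1708 and 1520 bp untreated, 0 and 0 bp after NaPr, and 258 and 0 bp after NaBu. H4K12ac at PSMB10 was thus present in both untreated libraries and in neither NaPr library, while H4K12pr covered 974 and 1239 bp there.

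The 6 ATPases of the 19S base, PSMC1 to PSMC6, unfold the substrate and open the gate, and 3 of their windows held a peak in every library. All 6 had a peak in both libraries of each group apart from NaBu-treated H4K12ac, H3K18bu and H4K12bu. PSMC3, at chr11:47425439-47427439, had the highest mean percentile of all members, 98.0, and its lowest value in a library was 94.0. Its peaks covered 660 and 202 bp in the H3K18bu libraries and 553 and 542 bp in the H4K12bu libraries, and 1451 and 1459 bp in the untreated H4K12ac libraries. PSMC4, at chr19:39970165-39972165, followed with a mean percentile of 90.4. PSMC3, PSMC4 and PSMC6 were the only members with a peak in all 20 libraries, and 3.04% of the other windows had one in all 20. These 3 ATPases made up 3 of the 5 members with H4K12bu in both libraries, and PSMB3 and PSME3 were the others. With peaks at q under 0.05 only, 1 member had H4K12bu in both libraries.

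The 11 non-ATPase subunits of the 19S particle include the ubiquitin receptor PSMD4, the deubiquitinase PSMD14 and the large scaffold PSMD1. All 11 had peaks in both libraries of H3K18pr, H4K12pr, H3K18ac NaPr and both untreated acetyl groups. None had an H4K12bu peak, and none had H3K18bu in both libraries. Butyryl peaks thus lay at a smaller share of their windows than of the ATPase windows, a difference that was not tested. After NaBu the H4K12ac shares also stood apart, at 40.9% of non-ATPase and 75% of ATPase windows over both libraries, and after NaPr they were 86.4% and 100%. The median of the genes' mean percentiles was 93.1 against 97.6 in untreated H4K12ac. Of the base chaperones, PSMD5 had a peak in 16 libraries, PSMD9 in 16 and PSMD10 in 14.

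Among activators, PSME1 and PSME2 form the interferon-induced 11S cap, whereas PSME3 and PSME4 encode nuclear activators and PSMF1 an inhibitor. PSME1, at chr14:24135194-24137194, had peaks in 5 libraries and a mean percentile of 34.9. It covered 681 and 1183 bp in H3K18ac untreated, 914 and 0 bp in H3K18ac NaPr, 343 and 0 bp in H4K12ac untreated, and 0 and 410 bp in H4K12pr. PSME2, at chr14:24145610-24147610, had peaks in 9 libraries, all of them acetyl libraries. RNF31 begins in its window on the opposite strand. PSME3 and PSME4, by contrast, had peaks in 18 and 19 libraries and PSMF1 in 15. PSME1 and PSME2 were the only members with a peak in 1 to 10 libraries, and the member next above them, PSMA5 or PSMB9, had 12. Of the 20S assembly chaperones, PSMG1 to PSMG4 had peaks in 13 libraries each, none of them butyryl, and PSMG4 had a mean percentile of 49.6.

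Peaks at proteasome genes lay mainly downstream of the start site in the propionyl and acetyl libraries from cells treated with NaPr or untreated. In H3K18pr, peaks covered 36.2% and 31.7% of the upstream 1000 bp of the member windows and 70.1% and 57.7% of the downstream 1000 bp. For the other protein-coding windows the shares were 24.8% and 18.6% upstream and 31.5% and 24.1% downstream. In H4K12ac NaPr, members were covered over 12.9% and 8.02% upstream and 36.4% and 27.7% downstream, against 7.44% and 5.39%, and 8.63% and 5.53%, in the others. In these libraries the gap between the downstream and upstream shares was larger for the members than for the other windows. In H3K18ac NaBu the member shares were 40.3% and 32.95% upstream and 45.4% and 36.3% downstream, and in H4K12ac NaBu they were 18.4% and 9.28% upstream and 17.5% and 4.30% downstream. The other windows had 24.1% and 16.1% upstream and 26.4% and 14.2% downstream in H3K18ac NaBu, and 8.67% and 3.98% upstream and 6.66% and 2.40% downstream in H4K12ac NaBu. In H3K18bu the summit of the strongest peak lay downstream at 6 of 17 and 4 of 11 member windows whose summit fell in the window, against 38 of 43 and 36 of 41 in H3K18pr. The other windows showed the same shift, with 35.8% and 32.2% of summits downstream in H3K18bu and 62.3% and 60.4% in H3K18pr. All ChIP libraries with fewer than 50% of member summits downstream came from the run of NaBu-treated cells, so mark, treatment and run cannot be told apart here.

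**Figure D3:**
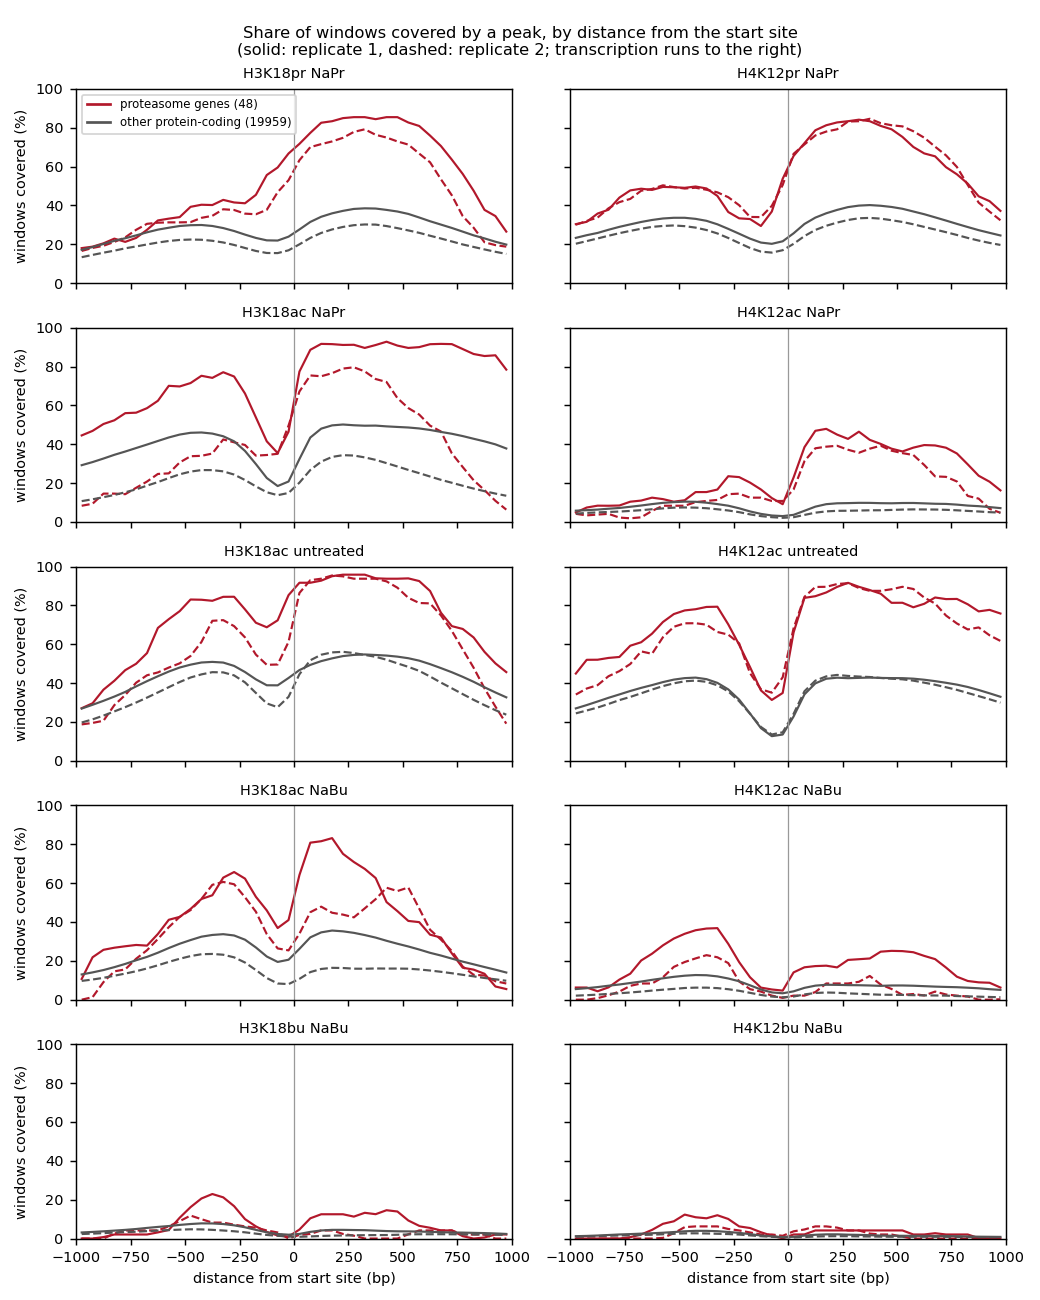
Percentage of windows covered by a peak (vertical axis) in 50 bp steps by distance from the start site in bp (horizontal axis, transcription to the right), for the 48 proteasome windows and the 19959 other protein-coding windows in each of the 10 groups, with a line per replicate. Coverage of proteasome windows is higher on the downstream side in propionyl, NaPr acetyl and untreated acetyl libraries, dips just before the start site in the acetyl libraries, and is low throughout in butyryl libraries.

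The first question of the design was whether an acyl mark is distributed differently from acetylation on the same lysine. The percentile was compared with limma in 1 fit over 15503 windows with a peak in at least 2 libraries, which kept 46 of the 48 members and left out PSMA8 and PSMB11, and p-values were adjusted over all windows. For H3K18pr against H3K18ac after NaPr, 0 of 46 members passed an adjusted p of 0.05, where 1.63% of all tested windows did. Of the members, 3 had an unadjusted p under 0.05. The most negative difference was at PSMA7 (difference in percentile −47.6 ± 20.6 SE, limma adjusted p = 0.284) and the most positive at PSMF1 (19.7 ± 14.0 SE, adjusted p = 0.59). PSME2 alone had H3K18ac peaks in both libraries and H3K18pr in neither, as did 4.61% of all windows, and 0 members had the reverse, as did 0.575%. Leaving out H3K18ac NaPr replicate 1 gave 1 member called in place of 0.

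For H4K12pr against H4K12ac after NaPr, 5 of 46 members passed, 4 higher and 1 lower. Of all tested windows 12.4% did, 1324 higher and 606 lower, a share near that of the members. PSMG3, a chaperone of the alpha ring, had percentiles of 84.5 and 81.9 in H4K12pr and no H4K12ac peak in either library (difference 48.7 ± 12.6 SE, limma adjusted p = 0.0235). PSMB3 had 72.6 and 78.9 in H4K12pr and likewise no H4K12ac peak (41.3 ± 11.9 SE, adjusted p = 0.0361). PSMD3, a scaffold subunit of the 19S lid, had 98.5 and 99.1 in H4K12pr and 65.8 and 36.2 in H4K12ac, the latter without a peak (47.8 ± 12.5 SE, adjusted p = 0.0241). PSMB10 was higher by 36.6 ± 9.06 SE (adjusted p = 0.0183). The PSMG3 window also held a peak in the NaPr and untreated inputs. When each list was cut to its 8158 strongest peaks, PSMG3 and PSMB3 had no peak in any of the 4 libraries, so that setting gave no direction for them. At PSMD3 the bases covered were 882 and 1009 bp in H4K12pr and 652 and 0 bp in H4K12ac. PSMC6 was the member that fell, from 93.9 and 93.8 in H4K12ac to 67.7 and 65.1 in H4K12pr (difference −27.5 ± 6.67 SE, limma adjusted p = 0.0165). The −log10 p-values of its strongest peaks overlapped, at 9.854 and 7.43 in H4K12pr and 11.73 and 9.103 in H4K12ac. More bases of its window were covered in H4K12pr, 510 and 706 bp, than in H4K12ac, 371 and 392 bp.

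In 5 member windows (PSMB3, PSMB9, PSMB10, PSMD9 and PSMG3) both H4K12pr libraries had a peak and neither H4K12ac library did, as in 18.3% of all windows, and 0 members had the reverse, as in 0.585%. The member count of 5 of 48 did not exceed that background. The count of members called by limma was 1 without H4K12pr replicate 1 and 0 without replicate 2.

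For H3K18bu against H3K18ac after NaBu, 1 of 46 members passed, PSMD5, where 2.50% of all tested windows did. PSMD5, which guards the 19S base during assembly, had no H3K18bu peak and H3K18ac percentiles of 82.4 and 82.9 (difference −40.8 ± 7.29 SE, limma adjusted p = 0.0161). The most negative difference, at PSMB9, did not pass (−47.0 ± 15.6 SE, adjusted p = 0.108), nor did the most positive, at PSME1 (18.5 ± 10.2 SE, adjusted p = 0.265), which had no peak in any of the 4 libraries, so that its percentiles are shared values. In 20 member windows both H3K18ac libraries had a peak and neither H3K18bu library did, as in 22.7% of all windows, and 0 members had the reverse, as in 0.025%. The count of 20 of 48 exceeded that background, and the members also had H3K18ac peaks more often than other windows. The count of members called became 3 without H3K18bu replicate 1 and 0 without H3K18ac NaBu replicate 1.

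For H4K12bu against H4K12ac after NaBu, PSMD5 and PSMB2 were lower, 2 of 46 members. Of all tested windows 2.56% passed, 387 lower and 10 higher. PSMB2, a structural beta subunit, had H4K12ac percentiles of 93.4 and 90.1 and no H4K12bu peak (difference −46.5 ± 9.44 SE, limma adjusted p = 0.0156). PSMD5 had 88.1 and 87.9 and no H4K12bu peak (−42.8 ± 7.29 SE, adjusted p = 0.00481), and no peak in any of the 4 libraries when lists were cut to equal numbers. The PSMB2 window also held a peak in the NaPr and NaBu inputs. The difference at PSMB1 was as large and did not pass (−46.7 ± 12.0 SE, adjusted p = 0.0542), and the most positive difference was at PSMB3 (15.2 ± 11.9 SE, adjusted p = 0.684). Peaks in both H4K12ac libraries and in neither H4K12bu library were found at 6 members and at 4.76% of all windows, and the reverse at 0 members and 0.07%. The count of members called was 4 without H4K12bu replicate 1 and 4 without H4K12ac NaBu replicate 2. The 4 acetyl lists after NaBu carry a control tag in their names, whereas their labels give NaBu, and the labels were followed.

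The second question was whether treatment moves acetylation. For H3K18ac after NaPr against untreated, limma called 0 of 46 members and 0% of all tested windows, with 621 of all windows at an unadjusted p under 0.05. Of the members 1 had an unadjusted p under 0.05, and the extremes were PSMC6 (17.7 ± 6.67 SE, limma adjusted p = 1) and PSMF1 (−24.3 ± 14.0 SE, adjusted p = 1). Peaks in both libraries of 1 group and neither of the other were found at 0 members in either direction, against 0.39% of all windows gained and 1.19% lost after NaPr.

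For H4K12ac after NaPr against untreated, 4 of 46 members passed, 1 higher and 3 lower. Of all tested windows 8.02% did, 381 higher and 863 lower. PSMB3 had untreated percentiles of 89.1 and 88.2 and no peak after NaPr (difference −54.1 ± 11.9 SE, limma adjusted p = 0.0168). PSMG3 (−44.4 ± 12.6 SE, adjusted p = 0.0448) and PSMB10 (−41.2 ± 9.06 SE, adjusted p = 0.0165) likewise had peaks in both untreated libraries and in neither NaPr library. These 3 genes were also among the 4 that were higher in H4K12pr than in H4K12ac after NaPr, and the same H4K12ac NaPr libraries stand in both comparisons. PSMB8 had higher percentiles after NaPr, 85.4 and 84.4, than untreated, 49.9 and 47.1 (36.4 ± 10.0 SE, adjusted p = 0.0385). The −log10 p-values of its strongest peaks were nevertheless lower after NaPr, 6.645 and 5.141, than untreated, 9.455 and 7.558. Its strongest peaks were number 19090 and 38077 of the lists after NaPr and number 33952 and 42784 untreated. Fewer windows held a peak after NaPr, and the part of this in the higher percentile was not tested. The PSMB8 peaks covered fewer bases after NaPr, 193 and 351 bp, than untreated, 959 and 1617 bp. The PSMB8 window also overlapped a peak of the untreated input. In 6 members (PSMB3, PSMB9, PSMB10, PSMD9, PSME2 and PSMG3) both untreated libraries had an H4K12ac peak and neither NaPr library did, as in 24.5% of all windows, and 0 members had the reverse, as in 0.275%. The count of 6 of 48 did not exceed that background. The median member had 1507 and 1439 bp covered untreated and 468 and 298.5 bp after NaPr. Without H4K12ac untreated replicate 1 or replicate 2 the count of members called was 0.

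For H3K18ac after NaBu against untreated, limma called 0 of 46 members, where 1.40% of all tested windows passed, and 8 members had an unadjusted p under 0.05. The most negative difference was at PSMB6 (−43.5 ± 13.8 SE, limma adjusted p = 0.137) and the most positive at PSMB9 (20.7 ± 15.6 SE, adjusted p = 0.603). PSME1 alone had peaks in both untreated libraries and neither NaBu library, as did 6.87% of all windows, and 0 members had the reverse, as did 0.44%. The count became 2 without H3K18ac NaBu replicate 1.

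For H4K12ac after NaBu against untreated, 8.38% of all tested windows passed, 998 lower and 301 higher. Of the 46 members 8 passed, and all 8 were lower. They were 5 non-ATPase subunits of the 19S particle (PSMD1, PSMD6, PSMD12, PSMD13 and PSMD14), the ATPase PSMC1, the catalytic PSMB5 and the chaperone PSMG2. PSMG2 had untreated percentiles of 99.9 and 99.8 and no peak in either NaBu library (difference −62.5 ± 14.8 SE, limma adjusted p = 0.0195). PSMB5 had 97.8 and 95.6 and no peak after NaBu (−59.3 ± 9.99 SE, adjusted p = 0.00341). PSMD12 had 96.2 and 94.4 and no peak after NaBu (−58.0 ± 12.1 SE, adjusted p = 0.0107), and PSMD6 had 76.2 and 87.3 and no peak (−44.4 ± 8.71 SE, adjusted p = 0.00777). The other 4 fell by 43.8 (PSMC1), 43.7 (PSMD14), 38.9 (PSMD1) and 37.4 (PSMD13). Their windows had from 1174 to 1906 bp covered untreated, from 170 to 434 bp in NaBu replicate 1 and 0 bp in NaBu replicate 2. The windows of PSMB5, PSMD1 and PSMD13 also held a peak in the untreated input. Starting the PSMG2 window at the gene record, 44999 bp away, gave a difference of 10.2 in percentile.

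The most positive difference in that comparison was at PSMB9 (26.7 ± 15.6 SE, limma adjusted p = 0.281). In 8 members both untreated libraries had an H4K12ac peak and neither NaBu library did, as in 28.0% of all windows, and 0 members had the reverse, as in 0.05%. The count of 8 of 48 did not exceed that background. Without H4K12ac untreated replicate 1 or replicate 2 the count of members called was 1. The NaBu libraries were sequenced in another run than the untreated ones, and replicate 2 had 11680 peaks.

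**Figure D4:**
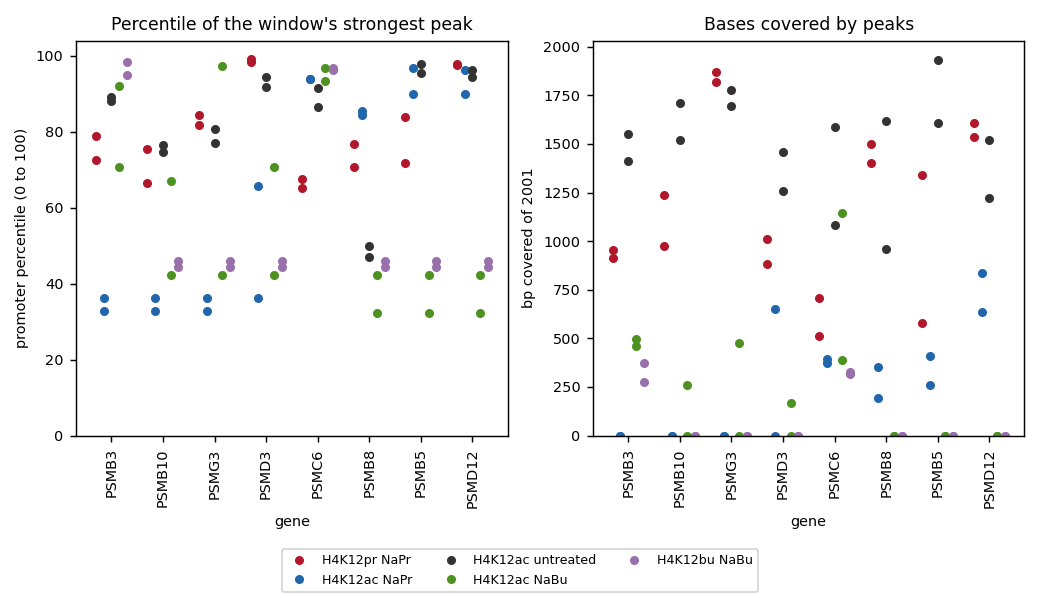
Promoter percentile (left, 0 to 100) and bp of the window covered by peaks (right) at 8 genes (horizontal axis) in the 2 libraries of each of the 5 H4K12 groups, with a point per library. After NaPr, H4K12ac has no covered base at PSMB3, PSMB10 and PSMG3, and at PSMB8 it has a higher percentile but fewer covered bases than untreated.

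The third question was whether the lysines differ. Limma called 0 of 46 members for H3K18pr against H4K12pr (2.21% of all tested windows), 0 for H3K18bu against H4K12bu (1.97%) and 0 for H3K18ac against H4K12ac untreated (0%). Unadjusted p was under 0.05 for 0, 4 and 3 members, and for 703 of all windows in the untreated comparison. The nearest to the threshold was PSMB1, with H3K18bu peaks in both libraries (percentiles 93.5 and 93.01) and no H4K12bu peak (48.03 ± 12.0 SE, limma adjusted p = 0.0555), and its window also held a peak in the NaBu and untreated inputs. The count for butyryl marks became 3 without H3K18bu replicate 1, 2 without H3K18bu replicate 2 and 2 without H4K12bu replicate 1. Other extremes were PSMB3 for butyryl marks (−32.2 ± 11.9 SE, adjusted p = 0.398), PSMA4 (−21.3 ± 15.7 SE, adjusted p = 0.649) and PSMA5 (12.0 ± 13.7 SE, adjusted p = 0.847) for propionyl marks, and PSMD9 (−20.5 ± 16.1 SE, adjusted p = 1) and PSMB9 (25.9 ± 15.6 SE, adjusted p = 1) for untreated acetyl marks.

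Differences between the lysines in these contrasts were also tested as interactions. For members, limma called 0 of 46 for propionyl against acetyl (2.90% of all tested windows), 0 for butyryl against acetyl (0.568%), 0 for NaPr against untreated (0.60%) and 0 for NaBu against untreated (0%). Unadjusted p was under 0.05 for 7, 6, 6 and 4 members, and for 1431 of all windows in the NaBu comparison. The largest estimates were at PSMB3 for propionyl against acetyl (−53.1 ± 16.9 SE, limma adjusted p = 0.104), PSMG1 for butyryl against acetyl (−50.8 ± 16.6 SE, adjusted p = 0.226), PSMB10 for NaPr (50.4 ± 12.8 SE, adjusted p = 0.097) and PSMB5 for NaBu (43.97 ± 14.1 SE, adjusted p = 0.302). No member was therefore shown to differ between the lysines in these contrasts.

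A further 31 genes act around the proteasome: other subunits and assembly factors, shuttles and the unfoldase VCP, ubiquitin genes and activating enzymes, and factors that control proteasome gene transcription. All 31 were tested. For H4K12ac after NaBu 7 were lower (ADRM1, AKIRIN2, MIDN, UBQLN2, USP14, VCP and ZFAND5) and 0 higher. As given above, 8.38% of all tested windows passed there, 998 lower and 301 higher. USP14, a deubiquitinase bound to the 19S particle, fell most (−57.7 ± 8.87 SE, limma adjusted p = 0.00229), and VCP, which extracts ubiquitylated proteins, was close behind (−51.9 ± 8.26 SE, adjusted p = 0.00268). USP14 and VCP had no H4K12ac peak in either NaBu library. The windows of USP14, VCP and ADRM1 also held a peak in the untreated input, and that of VCP in the NaPr input too. After NaPr, H4K12ac was lower at ADRM1, a ubiquitin receptor (−47.2 ± 10.4 SE, adjusted p = 0.0168), and at MIDN (−39.4 ± 9.98 SE, adjusted p = 0.0298). Of all tested windows, 8.02% were called there. For butyryl against acetyl, H3K18bu was lower at ADRM1, UBQLN2 and ZFAND5 (2.5% of all tested windows called, 377 lower and 11 higher). Genes lower in H4K12bu included MAFK, RPS27A and SEM1 (2.56%, 387 lower and 10 higher). The MAFK window also held a peak in the untreated input. Between the lysines, genes higher in H3K18bu than in H4K12bu included RPS27A, SEM1 and UBB (1.97% of tested windows called, 287 higher and 19 lower). None of the 31 was called for propionyl against acetyl at either lysine or for H3K18ac in either treatment, where 1, 5, 0 and 4 had an unadjusted p under 0.05. The shares of all tested windows called were 1.63% (H3K18pr), 12.4% (H4K12pr), 0% (H3K18ac after NaPr) and 1.4% (H3K18ac after NaBu). NFE2L1, which activates proteasome genes, had peaks in all 20 libraries, NGLY1, which deglycosylates it, in 7, and ECPAS, an adaptor of the proteasome, in 10.

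The motifs marked in the sequences were counted in the 250 bases before the RefSeq start that matched the window's start, for 42 members and 14942 protein-coding genes in all. The ETS core CGGAAG was present in 23 of 42 members (54.8%) and in 3438 of all 14942 promoters, and the antioxidant response element core TGACNNNGC in 10 (23.8%) and 11.6%. CCAAT was found in 17 (40.5%) and 35.1%, and TATAAA in 5 (11.9%) and 9.05%. PSME1 and PSME2 each held 1 match to TGACNNNGC although they had the fewest peaks of the members with any, and PSMC3 and PSMC6 held none. PSMC1 held 3 matches to TATAAA and PSMC2, PSMC5, PSMD8 and PSMA8 held 1 each. A match of these letters was a description of the stretch and was not a measure of binding.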

How the data were processed

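ChIP-seq peak lists of 20 libraries and 3 inputs from SW480 cells were used. Per the study's methods and the labels, reads were aligned to GRCh38.p13 (hg38) with Bowtie2 and peaks were called per library with MACS2 against input at p 0.01. The submitters' processing notes name Bowtie2 2.3.1, MACS2 2.1.0, cutadapt 1.8.1 and bcl2fastq 2.17.1. In the deposited lists, column 7 is the signal as a fold (ratio) over background, which was not used further, and the authors' columns 8 and 9 hold −log10 p-values and −log10 q-values. Peaks ended within the hg38 chromosomes in all lists. Read counts were not analysed here, so differential binding on reads was not repeated, and the study's own method (DiffBind) was replaced by tests on ranks.

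A window ran 1000 bp either side of the 5′ end of the Ensembl canonical transcript (GENCODE v44), and 1 bp of overlap counted. Groups followed the labels. Promoter percentiles were fitted with limma 3.58.1 (R 4.3.3; 10 groups, 20 libraries, trend and robust variance, 10 residual degrees of freedom, two-sided, Benjamini-Hochberg over 15503 windows with a peak in at least 2 libraries, adjusted p under 0.05). Fits were tested on simulated data. Descriptions used Python 3.11.15, pandas 2.3.3 and numpy 2.4.6. Named were members called (at most 5 a comparison in full), those with peaks in 10 or fewer libraries, the 3 highest and 3 lowest in mean percentile, the catalytic, immunoproteasome and tissue-restricted subunits, the extremes of each comparison, and called or rarely marked genes of the 31 pathway genes. Other names came with counts. The members and lists were chosen with earlier results of these data known. Alternatives were q under 0.05, equal numbers of peaks, the gene record's 5′ end, summits inside the window, no filter, no input overlap, log2(bp covered + 100), a replicate block, leaving out each library and, added after seeing the data, percentile 0 for windows without a peak. The result of 1 pathway gene is not reported here.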

Additional observations from a re-analysis of the deposited data

Results flagged for a closer look

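Differences between the lysines passed the test at SEM1 and RPS27A, which are not PSM genes but belong to the 31 genes acting around the proteasome. SEM1 encodes a small subunit of the 19S lid, and RPS27A a fusion of ubiquitin with a ribosomal protein. Butyryl against acetyl differed between H3K18 and H4K12 by 47.7 ± 6.86 SE percentile points at SEM1 (limma adjusted p = 0.00697) and by 53.0 ± 7.06 SE at RPS27A (adjusted p = 0.00604). SEM1 had percentiles of 93.1 and 93.2 in the H3K18bu libraries and no H4K12bu peak, and RPS27A had 94.9 and 96.5 and likewise no H4K12bu peak. Both genes had acetyl peaks in all 4 NaBu libraries, with percentiles from 90.8 to 99.6. Of all windows tested, 88 passed this test. The H4K12bu lists were the shortest, with 9642 and 8158 peaks against 22059 and 22497 for H3K18bu, and the part of list length in the difference was not tested.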

How the results depend on the processing

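Only peak lists were analysed, so depth is unknown, list length sets how many windows hold a peak, and ranks of windows without a peak differ between lists. Of 135 counts of called members under other settings, 97 stayed within 1.5 times the reported count, 35 moved and 3 changed sign. The cause was not tested unless stated. Shares in parentheses are of all windows tested under that setting. With peaks at q under 0.05 the counts were 1 (3.71%) for H3K18pr against H3K18ac, 10 (12.7%) for H3K18bu against H3K18ac, 1 (1.59%) for H4K12bu against H4K12ac, 8 (12.3%) and 16 (16.8%) for H4K12ac after NaPr and NaBu against untreated, 1 (1.89%) for H3K18bu against H4K12bu, and 2 (5.46%), 4 (1.73%) and 1 (1.51%) for the propionyl, butyryl and NaPr interactions. With equal numbers of peaks, where 39 members were tested, they were 2 (7.69%), 3 (6.25%) and 1 (2.02%) for the first 3 of these, 7 (17.3%) and 14 (16.1%) for H3K18ac and H4K12ac after NaBu, 2 (3.2%) for H3K18pr against H4K12pr, 1 (8.1%) for H3K18ac against H4K12ac untreated, and 5 (5.43%) and 2 (5.88%) for the propionyl and NaPr interactions. Starting windows at the gene record gave 1 (3.36%) for the propionyl interaction. Without the filter the counts were 11 (29.1%) for H3K18bu against H3K18ac, 8 (32.6%) and 14 (33.6%) for H4K12ac after NaPr and NaBu, and 4 (26.1%) for the propionyl interaction. Leaving out windows with an input peak, which left 33 members, gave 1 (2.23%) for H4K12bu against H4K12ac and 2 (7.99%) and 5 (8.2%) for H4K12ac after NaPr and NaBu. With windows without a peak set to percentile 0, a choice made after seeing the data, the counts were 16 (21.6%) and 5 (4.84%) for H3K18bu and H4K12bu against acetyl, 1 (2.98%) for H3K18bu against H4K12bu, and 4 (7.07%), 1 (4.9%) and 3 (4.94%) for the butyryl, NaPr and NaBu interactions.

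On log2 of bases covered, each library was centred on its median window, which shifts all windows of a library alike and had 0 bp in the H4K12ac lists after NaPr and NaBu. On it 20 members (36.8% of all windows called) were lower in H4K12pr than H4K12ac, 24 (39.4%) and 12 (33.2%) were higher in H4K12ac after NaPr and NaBu, 0 (13.5%) passed for H3K18bu against H3K18ac, and 13 (20.8%) and 4 (13.4%) for the propionyl and NaPr interactions. The signs follow from the centring, since the members' own bases covered were fewer after both treatments, and are no direction of the members.

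Of 250 differences of called members under other settings, 169 kept direction and call, 72 lost the call and 9 changed sign. On the centred scale these were PSMC1 (0.13), PSMD1 (0.47), PSMD13 (0.096) and PSMD14 (0.34) for H4K12ac after NaBu and PSMD3 (−1.01) for H4K12pr against H4K12ac, with the same limit. With equal numbers they were PSMD5 (1.46) for H4K12bu against H4K12ac and PSMG3 and PSMB3 (−3.32 each) for H4K12pr against H4K12ac, which had no peak left in the libraries compared, so these values are gaps between shared ranks and give no direction. At the gene record, PSMG2 gave 10.2 for H4K12ac after NaBu.

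Leaving out 1 library at a time gave from 0 to 1 members for H3K18pr against H3K18ac, 0 to 7 for H4K12pr against H4K12ac, 0 to 3 for H3K18bu against H3K18ac, 2 to 4 for H4K12bu against H4K12ac, 0 to 3 for H3K18bu against H4K12bu, 0 to 6 for H4K12ac after NaPr, 0 to 2 for H3K18ac after NaBu and 1 to 12 for H4K12ac after NaBu. The interactions gave 0 to 1 (propionyl), 0 to 2 (butyryl), 0 to 1 (NaPr) and 0 to 0 (NaBu), and the other comparisons 0 to 0. A lone library was assumed to vary like the other groups. With a replicate block the counts were those reported, 5, 1, 2, 4 and 8 where any member was called and 0 elsewhere. Replicate numbers did not pair the samples, since the differences between replicates correlated at −0.037 to 0.0805.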
